A study of Mus musculus with 41 samples.

Results

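Hepatic RNA of 19 female mice, 9 FGF21-treated and 10 vehicle-treated, was compared; these were all the female livers among the 41 livers sequenced, and the other 22 came from males (11 FGF21-treated and 11 vehicle-treated). Livers were assigned to sex and treatment by the sample labels, so no measured value chose them. All mice were C57BL/6J (spelled C57B/6J in the sample labels), with no genetic alteration named. They were placed on a 60% high-fat diet at 10 weeks of age and ate it for about 10 weeks, so that vehicle-treated mice were diet-induced obese (DIO) as well. FGF21-treated mice received 2 i.p. injections of recombinant human FGF21 at 0.1 mg/kg each, the earlier one just before dark and the later one just after lights came on, and vehicle-treated mice received saline at the same times. Livers were taken 2 hours after the later injection, that is, after an acute exposure in mice that were not food deprived by any stated protocol, and libraries were read from the 3′ end of polyadenylated transcripts. The comparison asks which hepatic genes differed in DIO females shortly after FGF21, and how these differences compared with those in males.

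FGF21 is a hormone made mainly by the liver under nutritional stress. It signals through an FGF receptor, principally FGFR1c, together with the co-receptor β-klotho, and the receptor activates the ERK kinase cascade. Adipose tissue and parts of the brain carry this pair at higher levels than hepatocytes, so the liver can be reached by FGF21 directly or by way of other organs. Hepatocytes shift between a fed program, with glucose uptake and glycogen storage, and a fasted program, driven by glucagon, cAMP, FOXO1, and low insulin, with PEPCK and glucose output.

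Levels are in CPM, the share of a library's counts that fell on a gene per 1000000 counts after TMM scaling of the libraries, and each is given as the lowest, median, and highest liver or as mean ± SD. Female libraries held between 1781653 and 4031033 counts on genes (median, 2947190), so 3 counts corresponded to about 1.02 CPM. Counts of Xist and of the Y-linked Ddx3y matched the labelled sex in all 41 livers. The livers carried the hepatocyte markers at a summed level of 30470 to 38150 CPM in vehicle-treated and 31159 to 37031 CPM in FGF21-treated females. Lep had no count in any female liver, Adipoq had at most 3, and the acinar genes Cel, Pnlip, Amy2b, and Ctrb1 had none. Other markers of these cells were read, mainly Cela1 for acinar cells and Fabp4 and Adrb3 for adipocytes. Summed acinar markers were 14.9 to 38.2 CPM with vehicle and 13.1 to 42.4 CPM with FGF21. Summed adipocyte markers were 11.6 to 18.9 CPM with vehicle and 15.2 to 22.9 CPM with FGF21. The empty genes alone therefore do not show that these cells were absent. Across 14 measures of the libraries (total, mitochondrial share, share of the most abundant genes, genes detected, TMM factor, and 9 summed marker lists), the smallest p between the female groups was 0.174 (two-sided exact permutation test), and the adjusted p was 0.984 for each. In liver tissue, fewer cells of a type and less RNA per cell cannot be told apart.

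A single library stood apart. Vehicle-treated female 10 lay far outside the other 9 vehicle-treated females in 10 of the 90 genes described here, including Igfbp1 (244 CPM, where the others had at most 51.0), Irs2, Plk3, Cish, and Cebpd. For each list of genes with more than 1 member past an unadjusted p of 0.05, the count without it is given below.

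FGF21 changed few genes past the threshold in females. Of 13185 genes tested, 4 (0.0303%) passed an adjusted p of 0.05 (edgeR quasi-likelihood test, Benjamini-Hochberg), namely Pde4b, Nr0b2, and Ppp1r3g, which rose (0.0228% of genes), and Cebpa, which fell (0.00758%). An unadjusted p under 0.05 was found for 503 genes (3.81%), 225 higher (1.71%) and 278 lower (2.11%). The median log2 fold change over all genes was -0.001, and the median SE of a gene was 0.18. The CPM of FGF21-treated and vehicle-treated females did not overlap for 2 genes (0.0152%), Cebpa and G0s2, both lower with FGF21.

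Pde4b encodes a phosphodiesterase that degrades cAMP, the messenger of glucagon and adrenergic receptors (chromosome 4, 102087543-102607259, GRCm38). Its level was 14.3, 23.8, and 37.8 CPM (lowest, median, and highest) in vehicle-treated females and 30.6, 47.3, and 60.7 CPM in FGF21-treated females. FGF21-treated livers exceeded every vehicle-treated liver in 8 of 9 cases, and the remaining one lay within the vehicle range. Mean expression was 25.2 ± 7.0 CPM (SD, n = 10) with vehicle and 47.2 ± 8.83 CPM (n = 9) with FGF21, a log2 fold change of 0.91 ± 0.13 (SE), or 1.88-fold, with an adjusted p of 7.93e-05 by edgeR. Pde4b passed the threshold without any 1 liver and in each other setting tried.

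Nr0b2 encodes SHP, a nuclear receptor without a DNA-binding domain that represses bile acid synthesis genes (chromosome 4, 133553376-133556536). It was measured at 8.30, 10.7, and 17.7 CPM in vehicle-treated and 14.96, 20.1, and 40.7 CPM in FGF21-treated females. All 9 FGF21-treated livers were above the vehicle median, and 6 were above every vehicle-treated liver. Vehicle-treated females averaged 11.7 ± 2.98 CPM and FGF21-treated females 23.5 ± 8.84 CPM, 2.0-fold more (log2 fold change of 1.0 ± 0.19, adjusted p = 0.0230 by edgeR).

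Ppp1r3g encodes a subunit that brings protein phosphatase 1 to glycogen and raises its synthesis (chromosome 13, 35958839-35970388). Vehicle-treated females had 0, 1.69, and 5.11 CPM, from 0 to 14 counts, and FGF21-treated females had 2.36, 8.53, and 25.9 CPM, from 8 to 76 counts. The groups overlapped in 2 FGF21-treated livers, and FGF21-treated female 8 was far above the others, which had at most 11.8 CPM. The log2 fold change was 2.41 ± 0.48 (adjusted p = 0.0444), and it was 2.06 without FGF21-treated female 8 (adjusted p = 0.203) and 2.41 without vehicle-treated female 10 (adjusted p = 0.0589). Ppp1r3g passed the threshold in 5 of 19 fits that left out 1 liver, with log2 fold changes of 2.06 to 2.72. Its passing the threshold, but not its direction, thus depended on single livers.

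Cebpa encodes C/EBPα, a transcription factor that maintains hepatocyte identity and activates metabolic genes (chromosome 7, 35119293-35121928). Its level was 170, 203, and 240 CPM in vehicle-treated and 113, 150, and 169 CPM in FGF21-treated females. Every FGF21-treated liver was below every vehicle-treated liver, although the highest of the former (169.0 CPM) and the lowest of the latter (169.5 CPM) nearly met. Vehicle-treated females averaged 202 ± 20.2 CPM and FGF21-treated females 147 ± 17.3 CPM, 1.37-fold lower (log2 fold change of -0.46 ± 0.090, adjusted p = 0.0230 by edgeR). Nr0b2 and Cebpa each passed the threshold in 13 of 19 fits that left out 1 liver, with adjusted p up to 0.0873 in the others.

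**Figure D1:**
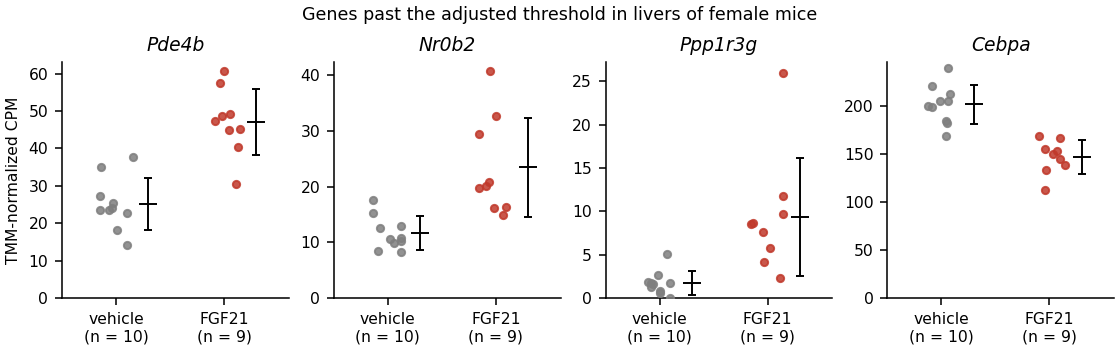
CPM of Pde4b, Nr0b2, Ppp1r3g, and Cebpa in each liver of vehicle-treated (gray, n = 10) and FGF21-treated (red, n = 9) females, on linear axes from 0, with the mean and SD as black bars. The Cebpa groups do not overlap, 8 of 9 FGF21-treated livers lie above all vehicle-treated livers for Pde4b, and 1 FGF21-treated liver reaches 25.9 CPM for Ppp1r3g.

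The promoters of these 4 genes are shown because only they passed the threshold. Each window runs from 250 bases before to 50 bases after a start annotated by RefSeq on GRCm38.p6. The capitals mark matches, on either strand, to the CRE half-site (TGACG), the CCAAT box (CCAAT), the E-box (CACGTG), the TATA box (TATAAA), the GC box (GGGCGG), or the nuclear receptor half-site (AGGTCA). RefSeq lists 4 starts for Pde4b, which reads from the 3′ end cannot separate, and the window printed is the 1 that was picked because it holds the CRE half-site.
Pde4b, chr4:102421305-102421604, plus strand: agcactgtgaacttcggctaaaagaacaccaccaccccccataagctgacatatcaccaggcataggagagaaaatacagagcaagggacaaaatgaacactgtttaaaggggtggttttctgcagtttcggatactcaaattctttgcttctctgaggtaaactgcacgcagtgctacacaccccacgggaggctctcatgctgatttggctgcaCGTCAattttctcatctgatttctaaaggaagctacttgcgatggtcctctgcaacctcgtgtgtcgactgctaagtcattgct
Nr0b2, chr4:133553126-133553425, plus strand: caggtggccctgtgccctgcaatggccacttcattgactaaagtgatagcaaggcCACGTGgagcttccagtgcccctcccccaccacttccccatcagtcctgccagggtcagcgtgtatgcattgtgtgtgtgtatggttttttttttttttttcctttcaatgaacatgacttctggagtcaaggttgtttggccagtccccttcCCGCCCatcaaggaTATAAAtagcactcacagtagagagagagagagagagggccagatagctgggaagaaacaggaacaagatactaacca
Ppp1r3g, chr13:35967656-35967955, plus strand: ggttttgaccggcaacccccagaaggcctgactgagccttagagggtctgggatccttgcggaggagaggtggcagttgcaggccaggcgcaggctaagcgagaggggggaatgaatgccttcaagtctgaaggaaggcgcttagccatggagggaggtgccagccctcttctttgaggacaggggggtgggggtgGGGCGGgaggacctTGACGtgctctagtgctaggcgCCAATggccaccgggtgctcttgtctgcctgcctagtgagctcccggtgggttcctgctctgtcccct
Cebpa, chr7:35119043-35119342, plus strand: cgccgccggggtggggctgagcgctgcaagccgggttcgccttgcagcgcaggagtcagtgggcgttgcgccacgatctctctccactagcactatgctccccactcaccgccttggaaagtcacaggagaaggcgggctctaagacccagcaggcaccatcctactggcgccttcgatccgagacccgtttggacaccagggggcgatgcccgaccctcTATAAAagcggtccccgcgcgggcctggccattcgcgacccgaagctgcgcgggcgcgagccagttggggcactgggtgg

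The Pde4b window held a CRE half-site on the opposite strand, 34 bases before the start. Of the other 3 Pde4b windows, none held that half-site, 2 held a CCAAT box, and 1 of these also held a nuclear receptor half-site, so the shares of single promoters given next do not apply to a window picked among 4. The Ppp1r3g window held a CRE half-site 40 bases before the start, with a CCAAT box at 18 and a GC box at 54 bases before it. Nr0b2 held a TATA box at 28, a GC box at 42, and an E-box at 195 bases before the start, and Cebpa held a TATA box 30 bases before it. Of all 32851 promoters of the same length, 20.8% held a CRE half-site, 37.4% a CCAAT box, 35.7% a GC box, 13.6% a TATA box, 7.15% an E-box, and 16.3% the nuclear receptor half-site. The full CRE (TGACGTCA, which contains the half-site), found in 1.79% of promoters, and the C/EBP palindrome (TTGCGCAA), found in 0.183%, had no match in these windows or in the other Pde4b windows. These matches describe letters only.

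Other than Ppp1r3g, no gene of glycogen metabolism passed the adjusted threshold. Ppp1r3b, which encodes the main glycogen-targeting subunit of liver, was at 86.2, 110, and 191 CPM with vehicle and 36.3, 52.8, and 111 CPM with FGF21, so that only 2 FGF21-treated livers reached the vehicle range. Its log2 fold change was -0.90 ± 0.21 (adjusted p = 0.199 by edgeR), opposite in sign to that of Ppp1r3g. Ppp1r3b passed the threshold in 3 of 9 other settings (DESeq2, limma-voom, and without robust estimation). It passed in 1 of 19 fits that left out 1 liver. The other subunits tested, Ppp1r3c (-0.14 ± 0.26) and Ppp1r3e (-0.04 ± 0.23), had small differences, and Ppp1r3a, Ppp1r3d, and Ppp1r3f had at most 5 counts in any female liver. Of 26 glycogen genes tested, 1 rose and none fell past the adjusted threshold; unadjusted, 3 were higher (Ppp1r3g, Stbd1, and Ugp2) and 2 were lower, Ppp1r3b among them (1.71% and 2.11% of all genes), the same counts as without vehicle-treated female 10. Ugp2, which makes the glucose donor for glycogen, had a log2 fold change of 0.27 ± 0.11, and Stbd1, a glycogen-binding protein, 0.31 ± 0.12. Glycogen synthase (Gys2) and phosphorylase (Pygl) were not among them.

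Pck1 encodes cytosolic PEPCK, the gluconeogenic enzyme under glucagon and insulin control. Its level was 1213, 2145, and 3793 CPM in vehicle-treated females and 3308, 5017, and 6914 CPM in FGF21-treated females. Of 9 FGF21-treated livers, 7 exceeded every vehicle-treated liver, and vehicle-treated female 10 had the highest level of its group. Means of 2326 ± 934 and 4815 ± 1091 CPM, respectively, gave a log2 fold change of 1.05 ± 0.25 (adjusted p = 0.228 by edgeR, and 0.0589 without vehicle-treated female 10). Igfbp1, a secreted IGF-binding protein repressed by insulin, was at 21.3, 30.9, and 244 CPM with vehicle and 42.5, 136, and 273 CPM with FGF21. Every FGF21-treated liver was above the vehicle median, and the log2 fold change of 1.36 ± 0.48 (adjusted p = 0.9997) was 2.04 without vehicle-treated female 10 (adjusted p = 0.0589). Irs2, the insulin receptor substrate that is induced in fasting, was at 33.8, 51.5, and 95.6 CPM with vehicle and 50.9, 88.2, and 139 CPM with FGF21 (0.73 ± 0.21, adjusted p = 0.637).

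Of 19 gluconeogenic and fasting genes tested, none passed the adjusted threshold. Unadjusted, 6 were higher with FGF21 and 0 were lower, namely Pck1, Irs2, Igfbp1, Ppargc1a (coactivator PGC-1α, 0.42 ± 0.15), Nr4a1 (an orphan nuclear receptor induced by cAMP, 1.29 ± 0.53, at most 13 counts), and Sik1 (a kinase induced by cAMP, 0.61 ± 0.28). The median log2 fold change of the 19 was 0.23, beside -0.001 for all genes, of which 1.71% were higher at the same p. Without vehicle-treated female 10, 8 were higher, and 5 to 8 were higher when any 1 female liver was left out. G6pc, the last step of glucose release, had a log2 fold change of 0.65 (p = 0.0798), and Pdk4 had -0.47 (p = 0.523). The list was composed with these results known, so its count is not independent evidence of a direction.

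G0s2 encodes an inhibitor of the triglyceride lipase ATGL. Its level was 73.9, 140, and 200 CPM in vehicle-treated and 17.7, 50.9, and 71.5 CPM in FGF21-treated females, with no overlap. Means were 142 ± 39.3 and 48.4 ± 20.3 CPM, respectively, but the adjusted p was 0.360 (log2 fold change of -1.55 ± 0.41). G0s2 passed the threshold in 2 of 9 other settings, the female livers alone and the replicate number as a block. It passed in 0 of 19 fits that left out 1 liver. Depp1, a FOXO-responsive gene, was at 77.8, 96.9, and 175 CPM with vehicle and 124, 192, and 261 CPM with FGF21 (0.72 ± 0.18, adjusted p = 0.293). All 9 FGF21-treated livers were above the vehicle median for Depp1, and 4 remained within the vehicle range.

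**Figure D2:**
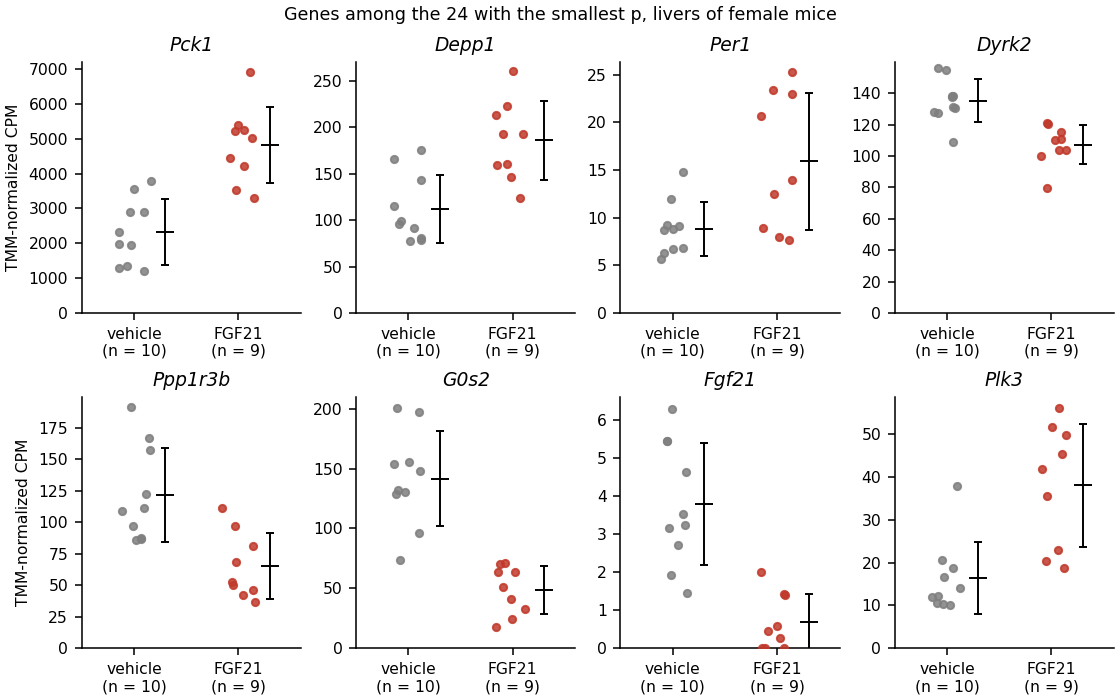
CPM of 8 of the 24 genes with the smallest p in vehicle-treated (gray, n = 10) and FGF21-treated (red, n = 9) females, 1 point per liver, linear axes from 0, mean and SD as black bars, which for Fgf21 are cut at 0. Pck1, Depp1, Per1, and Plk3 are higher on average with FGF21, Dyrk2, Ppp1r3b, G0s2, and Fgf21 are lower, and only G0s2 has no overlap between the groups.

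The hormone and its receptors were examined next. The injected protein was human and does not add mouse Fgf21 RNA. Fgf21 itself, read with 4 to 25 counts in vehicle-treated and 0 to 6 counts in FGF21-treated females, was at 1.46, 3.38, and 6.28 CPM and at 0, 0.443, and 2.01 CPM, respectively. It had no count in 3 FGF21-treated livers, and 8 of 9 were below every vehicle-treated liver. The fitted log2 fold change was -2.45 ± 0.64 (adjusted p = 0.320 by edgeR), and its size is uncertain at these counts. Of the 7 other settings that gave Fgf21 an adjusted p, it passed the threshold in 1, the female livers alone (adjusted p = 0.00187 by edgeR). It passed in 0 of 19 fits that left out 1 liver. The co-receptor Klb (-0.14 ± 0.16), Fgfr1 (-0.10 ± 0.25), Fgfr2 (0.17 ± 0.14), Fgfr3 (-0.30 ± 0.17), Fgfr4 (0.04 ± 0.20), and the adaptor Frs2 (0.07 ± 0.15) each differed by less than 2 SE. Klb was at 11.8 ± 2.10 CPM with vehicle and 10.6 ± 1.97 CPM with FGF21, and Kl had no count in any female liver.

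Genes downstream of ERK include immediate early genes and the feedback inhibitors of the Sprouty, Spred, and DUSP families. Of 16 tested, none passed the adjusted threshold. Unadjusted, 5 were higher (Etv5, Spred1, Spry4, Fos, and Dusp6) and 0 were lower, beside 1.71% and 2.11% of all genes, with a median log2 fold change of 0.14. Etv5, an ETS factor, was at 1.33, 2.67, and 3.95 CPM with vehicle and 2.78, 4.18, and 6.48 CPM with FGF21 (0.66 ± 0.24, p = 0.00871). All 9 FGF21-treated livers were above the vehicle median of Etv5 and 5 were above every vehicle-treated liver. Spry4 had a log2 fold change of 0.81 ± 0.31, Spred1 of 0.23 ± 0.091, Dusp6 of 0.35 ± 0.16, and Fos of 0.95 ± 0.43 at no more than 13 counts. Egr1, commonly used as a readout of the receptor, had 0.50 (p = 0.224). The count was 6 higher and 1 lower without vehicle-treated female 10, and it fell to 3 higher without vehicle-treated female 4 or FGF21-treated female 9. Of the 7 members with at least 10 counts in every liver, 2 were higher. In males, 5 of the 16 were higher and 0 were lower at the same p, at which 3.2% of all genes were higher.

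Of 11 tested phosphodiesterases that degrade cAMP, Pde4b was the 1 member past either threshold. Of all genes, 0.0303% passed the adjusted and 3.81% the unadjusted threshold. Only 3 of the 11 had at least 10 counts in every liver, so the differences of the others are less certain. The closest paralogs of Pde4b, namely Pde4a (-0.11 ± 0.31), Pde4c (0.07 ± 0.36), and Pde4d (-0.15 ± 0.36), were read at a mean of 1.69 to 2.51 CPM. Pde3b, the phosphodiesterase activated by insulin, was at 62.9 ± 14.2 CPM with vehicle and 64.0 ± 8.12 CPM with FGF21 (0.04 ± 0.13). Pde8a was at 35.6 ± 6.45 and 38.2 ± 3.68 CPM, and Pde1a, Pde3a, Pde7a, Pde7b, and Pde8b averaged 1.27 to 6.19 CPM with p of 0.230 or more. The 21 components of cAMP signaling tested included none past an unadjusted p of 0.05. The 3 with the smallest p were Rapgef4 (0.34 ± 0.20) and Rapgef3 (0.49 ± 0.30), which encode the cAMP sensors Epac2 and Epac1, and Atf1 (0.15 ± 0.098). The glucagon receptor Gcgr had a log2 fold change of 0.02 and the catalytic subunit Prkaca 0.05.

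SHP acts on bile acid genes with LRH-1 and HNF4α. Of 26 bile acid genes tested, 1, Nr0b2, rose past the adjusted threshold, and unadjusted 2 were higher and 2 were lower (1.71% and 2.11% of all genes). Nr5a2, which encodes LRH-1, was at 105 ± 6.85 CPM with vehicle and 118 ± 10.2 CPM with FGF21 (0.18 ± 0.078, p = 0.0266). Cyp7a1, the rate-limiting enzyme of bile acid synthesis and a gene that SHP represses, was at 55.3, 160, and 291 CPM with vehicle and 58.4, 101, and 130 CPM with FGF21. All 9 FGF21-treated livers were below the vehicle median, yet none was below the lowest vehicle-treated liver, and the log2 fold change was -0.81 ± 0.30 (p = 0.0103, adjusted p = 0.9997). Cyp8b1, another SHP target, had -0.18 (p = 0.194). The other lower gene, Slco1a1, an organic anion transporter, rested on vehicle-treated female 10 (53.9 CPM, against at most 6.17 in the others). Its log2 fold change of -2.23 became -0.17 without that liver, and the lower count became 1.

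Of 6 C/EBP family genes tested, only Cebpa passed a threshold, beside 0.0303% (adjusted) and 3.81% (unadjusted) of all genes. Cebpb, which is induced by glucagon and glucocorticoids, was at 130 ± 44.3 CPM with vehicle and 144 ± 38.5 CPM with FGF21 (0.14 ± 0.19), and Cebpd was at 11.5 ± 7.90 and 13.7 ± 4.49 CPM (0.26 ± 0.32). Both were highest of their group in vehicle-treated female 10, and without it the log2 fold changes were 0.28 and 0.58. Cebpg, Cebpe, and Ddit3 had log2 fold changes of -0.02, 0.10, and 0.18 with p of 0.461 or more.

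No gene of lipid synthesis, oxidation, or cholesterol synthesis passed the adjusted threshold. Of 23 genes of fatty acid and triglyceride synthesis, unadjusted, 1 was higher, the phosphatidate phosphatase Lpin2 (165 ± 28.8 CPM with vehicle, 216 ± 31.6 CPM with FGF21, 0.39 ± 0.10, adjusted p = 0.304), and 1 was lower, the lipid droplet protein Pnpla3 (-1.21 ± 0.53, at most 18 counts); without vehicle-treated female 10, 2 were higher and 1 was lower. Of all genes, 1.71% were higher and 2.11% lower at this p. Fasn, which makes palmitate, had -0.18 (p = 0.470), Scd1 -0.41 (p = 0.406), and Srebf1 -0.18 (p = 0.466). The 22 genes of fatty acid oxidation and ketogenesis included none past an unadjusted p of 0.05, and their median was 0.03. Among them, Cpt1a, the gate of mitochondrial oxidation, had 0.04 (p = 0.553). Of 21 genes of cholesterol synthesis, 20 had a negative log2 fold change, but none had an unadjusted p under 0.05, and the median was -0.21. Idi1, an isomerase of the pathway, had -0.47 ± 0.30 (p = 0.124). In males, 20 of the 21 were negative too, with a median of -0.28. These genes share a regulator and are not independent of each other.

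Per1, a clock repressor that is also induced by cAMP and glucocorticoids, was at 5.67, 8.75, and 14.8 CPM with vehicle and 7.66, 13.98, and 25.3 CPM with FGF21 (0.88 ± 0.24, adjusted p = 0.386). FGF21-treated livers were split for Per1, with 4 at 20.6 CPM or above and the others within the vehicle range. Of 18 clock genes, unadjusted, 2 were higher, Per1 and Nr1d2 (0.24 ± 0.11), and 0 were lower (1.71% and 2.11% of all genes); without vehicle-treated female 10, 1 was higher and 1 was lower. Per2 (0.17), Dbp (0.06), and Arntl (-0.06) had p of 0.519 or more. In the integrated stress response, 3 of 14 genes were higher and 0 were lower, unadjusted, beside the same shares of all genes, with or without vehicle-treated female 10. These were Trib3, a pseudokinase, at 10.0 ± 2.46 and 16.2 ± 5.71 CPM (0.69 ± 0.21, adjusted p = 0.658), Sesn2 (0.73 ± 0.22), and Chac1 (0.71 ± 0.33). None of them had at least 10 counts in every liver of both sexes, and of the 8 members that did, 0 were higher. Atf4 (0.05) and the chaperone Hspa5 (-0.01) were close to 0. Of 15 genes of growth hormone signaling, unadjusted, 1, Stat5a, was lower (-0.51 ± 0.21, p = 0.0188 by edgeR) and 0 were higher, beside 2.11% and 1.71% of all genes. The receptors of adiponectin, Adipor1 (-0.06) and Adipor2 (-0.04), and the AMPK subunits had no member past an unadjusted p of 0.05 among 12 tested, and neither did the 19 acute phase genes. Of 7 endothelial marker genes tested, 1, Pecam1, was higher at an unadjusted p under 0.05 (0.24 ± 0.11), beside 1.71% of all genes. No tested gene of the other marker lists was past it. The summed endothelial markers were 391 to 463 CPM with vehicle and 372 to 463 CPM with FGF21.

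**Figure D3:**
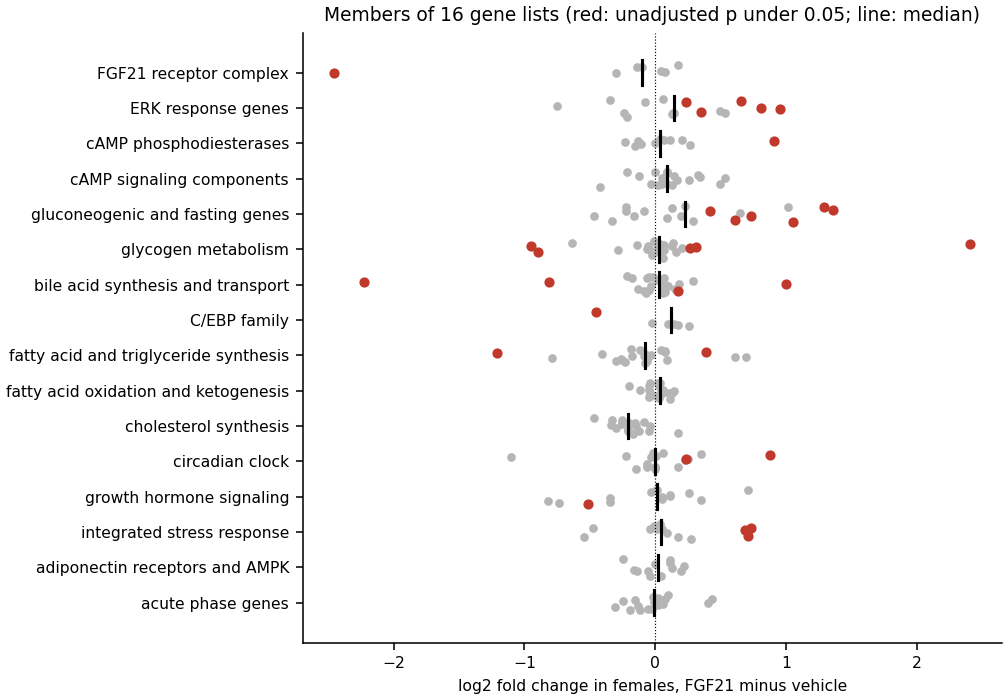
Log2 fold change in females (FGF21 minus vehicle, horizontal axis) of each tested member of 16 gene lists, 1 row of points per list with random vertical spread, members past an unadjusted p of 0.05 in red, and the list median as a black line. The gluconeogenic and fasting list has 6 red points to the right and 0 to the left, and all but 1 of the cholesterol genes lie left of 0 without a red point.

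The remaining genes among the 24 with the smallest p did not pass the adjusted threshold. Higher with FGF21 were 2410131K14Rik (7.11 ± 2.03 and 11.5 ± 1.68 CPM, 0.72 ± 0.16, adjusted p = 0.0907), the stress-responsive kinase Plk3 (16.4 ± 8.39 and 38.1 ± 14.4 CPM, 1.23 ± 0.31), the phosphatase Ctdsp2 (0.40 ± 0.10), the thioesterase Them4 (0.39 ± 0.10), the retroelement silencing factor Resf1 (0.59 ± 0.15), and Cln8 (0.42 ± 0.12). Lower were the kinase Dyrk2 (135 ± 13.6 and 107 ± 12.7 CPM, -0.33 ± 0.082), the microvillar scaffold Anks4b (-0.44 ± 0.11), the galectin-related Lgalsl (-0.55 ± 0.15), and Rtp3 (-0.51 ± 0.14). Tarbp1 and Prr3 were read with at most 10 and 23 counts, and their log2 fold changes of 1.59 ± 0.41 and 1.05 ± 0.31 are less certain. Without vehicle-treated female 10, Resf1 passed the threshold (0.71, adjusted p = 0.0248).

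Levels varied among FGF21-treated livers. The mice were not paired, so the response of a single mouse was not measured. FGF21-treated female 3 had the highest level of its group for Ppp1r3b (111 CPM), Anks4b (80.9 CPM), and Cebpa (169 CPM), each the end nearer to vehicle. Yet its Nr0b2 (29.45 CPM) and Depp1 (213 CPM) were above every vehicle-treated liver, and its Fgf21 (0.595 CPM) was below every one. FGF21-treated female 6 had the highest Pck1 (6914 CPM) and Per1 (25.3 CPM) and the lowest Cebpa (113 CPM) and Pde4b (30.6 CPM). The last of these is the end nearer to vehicle.

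**Figure D4:**
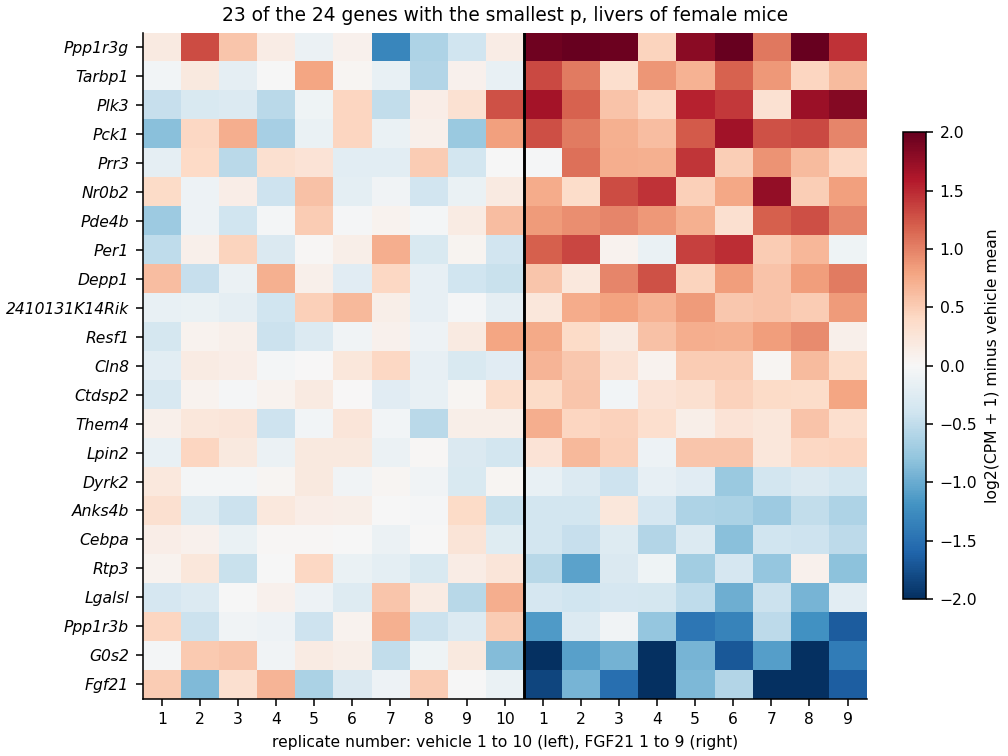
Color shows log2(CPM + 1) of 23 of the 24 genes with the smallest p (rows) in each of 19 female livers (columns, 10 vehicle-treated to the left of the black line and 9 FGF21-treated to its right) minus the mean of the vehicle-treated livers, with colors saturated at -2 and 2. FGF21-treated columns are mostly red in the 15 upper rows and blue in the 8 lower rows, and vehicle-treated column 10 is red for Plk3, Pck1, and Resf1.

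Males were set beside females for the 24 genes, which had been ranked in females. In males, 20 of 24 (83.3%) had a log2 fold change of the same sign, compared with 52.3% of all 13185 genes, and the genes that differed in sign were 2410131K14Rik, Ctdsp2, Lpin2, and Lgalsl. Male livers played no part in the ranking, but it favors large values in females, so that the smaller male values of all 20 are no comparison of size. Pde4b was 0.44 ± 0.13 (p = 0.00168), Cebpa -0.19 ± 0.084 (p = 0.0270), and Ppp1r3g 1.04 ± 0.51 (p = 0.0469) in males, and Nr0b2 was 0.15 ± 0.18 (p = 0.407). Fgf21 was -1.38 ± 0.49 (p = 0.00763) and G0s2 -0.83 ± 0.36 (p = 0.0289). An unadjusted p under 0.05 in males was found for 8 of the 24, beside 7.93% of all genes (1045), and 0 genes (0.0%) passed the adjusted threshold in males.

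The difference between the sexes was tested as the female minus male log2 fold change. No gene passed an adjusted p of 0.05 (0 of 13185, 0.0%, edgeR), the smallest adjusted p being 0.990, and 572 (4.34%) had an unadjusted p under 0.05. Limma-voom and DESeq2 gave 0 genes as well. Among the 24 genes, 14 had an unadjusted p under 0.05, which their ranking in females favors. The difference was 0.47 for Pde4b (p = 0.0158), 0.85 for Nr0b2 (p = 0.00210), -0.27 for Cebpa (p = 0.0336), and 1.37 for Ppp1r3g (p = 0.0679). The 3 genes with the smallest p for the difference were Pan2, a deadenylase (0.19 ± 0.17 in females and -0.70 ± 0.16 in males), 2410131K14Rik (0.72 and -0.12), and Slc30a1, a zinc exporter (-0.07 ± 0.084 and 0.36 ± 0.079). The median SE of this difference was 0.25 on the log2 scale, larger than for either sex alone. At this number of mice, even differences of several SE could be missed. That of 2410131K14Rik, 0.83 ± 0.22, had an adjusted p of 0.990 (edgeR). The log2 fold change of Igfbp1 was 1.74 ± 0.44 in males (p = 0.000368) and 1.36 ± 0.48 in females.

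**Figure D5:**
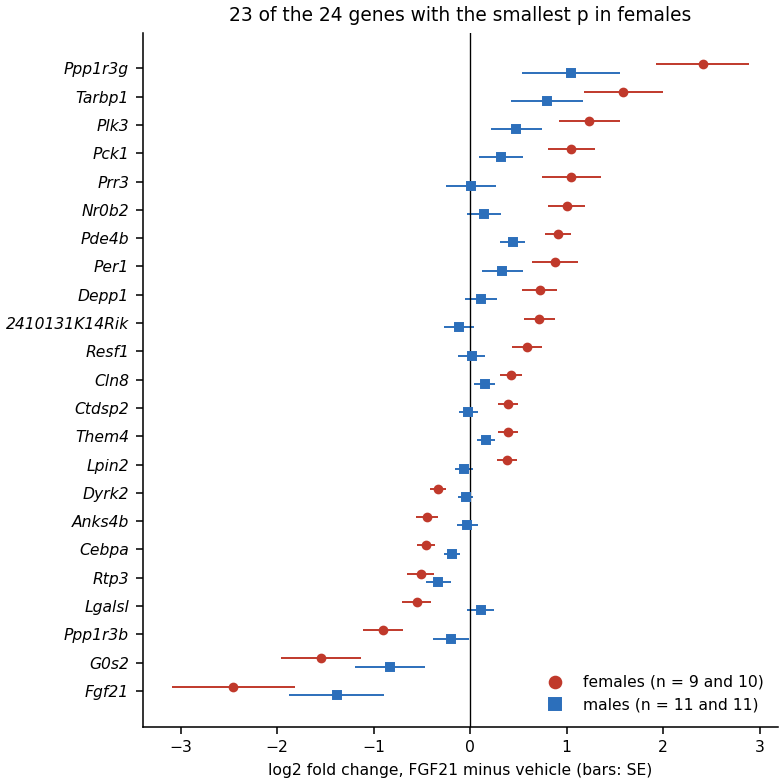
Log2 fold change (FGF21 minus vehicle) with its SE for 23 of the 24 genes with the smallest p in females, in females (red circles) and males (blue squares), 1 row per gene. Of these, 19 have the same sign in both sexes, and all 19 lie closer to 0 in males, a side of the comparison that the ranking in females favors.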

How the data were processed

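Per the labels, RNA of 41 livers was sequenced with the QuantSeq FWD kit, which reads 3′ ends. The authors trimmed 11 leading bases and adapters, aligned reads to GRCm38 with STAR 2.6.0c and GENCODE vM15, and deposited raw counts per gene (52636 genes), which were used here; their CPM tables were not. Whether reads were merged by identifier or counted by strand is not given in the sources used here, so genes with a partner on the opposite strand (such as Cebpa and Ppp1r3g) may include its reads.

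The filter kept 13185 genes whose CPM averaged 0.5 or more over all livers. In R 4.3.3, edgeR 4.0.16 (TMM, robust quasi-likelihood test, 4 sex × treatment groups, biological coefficient of variation 0.187) gave all gene tests, with Benjamini-Hochberg adjustment over all genes tested. The scripts were tested on simulated data. Alternatives were limma-voom (limma 3.58.1), DESeq2 1.42.0, other scaling, filters, samples, threshold, replicate block, and leaving out each female liver.

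Named genes were the 24 with the smallest p in females, the 3 such members of each list, all tested members of the receptor, phosphodiesterase, C/EBP, and Ppp1r3 families, and 3 for the interaction, with a few other list members given as values; some genes that the rule includes are not reported here. The livers, lists, and rules were chosen with earlier results of these data known. Positions are from GENCODE M21 on GRCm38. No 2 female libraries of 1 group agreed within sampling noise, and male libraries were not checked for this. The p values reflect the spread between these mice.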

Additional observations from a re-analysis of the deposited data

Results flagged for a closer look

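Single livers far from the rest of their group were found in 25 of 208 groups of values checked (90 genes and 14 library measures in each female group). A rate of about 1 in 20 would hold only for independent, normally spread values, which these need not be, so the count is not measured against chance. Of the 25, 19 were in vehicle-treated and 6 in FGF21-treated females, and 10 belonged to vehicle-treated female 10. That liver had 244 CPM of Igfbp1, 95.6 of Irs2, 37.8 of Plk3, 53.6 of Resf1, 42.4 of Cish, 32.9 of Cebpd, 238 of Cebpb, 15.8 of Orm3, and 53.9 of Slco1a1, all above its group, and 207 CPM of Acadl, below it. Other vehicle-treated livers that stood apart were number 2 for Ppp1r3g (5.11 CPM) and Il1rn (34.3), number 3 for Pde7a (12.3), Atf1 (49.1), and Pparg (4.64), number 4 for Ppp1r3e (8.80), number 5 for Tarbp1 (1.61), number 6 for Prkab1 (8.72, low), and number 8 for Fgfr1 (11.8). Among FGF21-treated livers these were number 8 for Ppp1r3g (25.9 CPM), number 6 for Dyrk2 (79.6, low), number 3 for Anks4b (80.9), number 9 for Klb (6.20, low), and number 5 for Pde7b (4.29) and Cebpe (3.57). The cause of these values was not tested.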

How the results depend on the processing

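Pde4b was the 1 gene that passed the threshold in every fit. The number of genes past it in females, 4, was 9 with DESeq2 (which gave Ppp1r3g no adjusted p), 7 with limma-voom, 7 with the female livers alone, 8 without robust estimation, 2 on library totals without TMM, 2 without a filter, and 1 to 7 when 1 female liver was left out (1, Pde4b, without vehicle-treated female 4, 8, or 9, and 7 without FGF21-treated female 3). Pck1 passed in 3 of the 9 other settings, with adjusted p of 0.00683 to 0.329. Without vehicle-treated female 10, 5 genes passed, Errfi1 (named after its value was seen) and Resf1 among them; the list counts without that liver were added after the data were seen. Replicate numbers were not taken to pair the livers, since not every same-numbered pair correlated above 0.1: over 6569 genes, the 9 female pairs correlated at -0.316 to 0.127 (1 above 0.1) and the 11 male pairs at -0.091 to 0.475 (7 above 0.1), and 0 and 3 FGF21-treated livers correlated best with their own number. With the replicate number as a block, 12 genes passed in females and 1, Trib1, in males. Vehicle-treated female 10 has no FGF21-treated liver of its number, so it did not contribute to the female difference in that setting. Its effect there cannot be told apart from that of leaving this liver out.

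Of 90 named genes, 12 changed sign in some setting, all with small differences except Slco1a1 (0.026 with the replicate block). When 1 liver was left out, log2 fold changes ranged from -0.0087 to 0.16 for Frs2, -0.24 to 0.10 for Fgfr1, -0.0504 to 0.13 for Fgfr4, -0.22 to 0.11 for Pde7a, -0.26 to 0.016 for Pde4d, -0.017 to 0.096 for Pde3b, -0.12 to 0.19 for Pde4c, -0.13 to 0.12 for Pde8b, -0.15 to 0.13 for Ppp1r3e, -0.35 to 0.26 for Cebpe, and -0.10 to 0.072 for Cebpg. With limma-voom, Pde4c was -0.052, Pde8b 0.11, Ppp1r3e 0.0012, and Cebpe -0.11, and with the replicate block Cebpg was 0.013. Differences between female groups in library measures, none past an exact p of 0.05, ranged from -96581 to 153350 for total counts, -120.2 to 58.8 for genes detected, and, in summed CPM, -16.9 to 4.96 for Kupffer, -9.01 to 6.31 for stellate, -6.57 to 1.93 for cholangiocyte, -8.51 to 59.7 for red blood cell, and -2.56 to 1.11 for acinar markers. Depth limits genes of a few counts, such as Ppp1r3g, Fgf21, Tarbp1, and Prr3.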
